A study of Mus musculus with 89 samples.

Results

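The genes described here mark the cells of brain blood vessels and of the coverings of the brain. The set has 39 genes, of 19505 genes named on the array, and was fixed as a list of symbols: 17 endothelial genes, 9 mural genes (pericytes and smooth muscle), 12 genes of meningeal fibroblasts, and Cspg5, a proteoglycan gene known from neural cells that stands alone. Each was measured by 1 probe set that carries its symbol and no other. Whole forebrain RNA of 89 mouse embryos at embryonic day 18.5 was hybridised to Clariom S arrays, each embryo on its own array. Ts65Dn embryos (23, against 18 EupTs65Dn embryos) carry a freely segregating extra chromosome made of a distal part of mouse chromosome 16 (Mmu16), with orthologues of human chromosome 21 genes, and a proximal part of chromosome 17. Ts66Yah embryos (24, against 24 EupTs66Yah embryos) carry the same kind of minichromosome without the chromosome 17 part. All animals were untreated and on a mixed B6 and C3H background, and each colony gave embryos from 6 litters, so that embryos of 1 group shared dams. Ts65Dn males are infertile, so Ts65Dn embryos had the extra chromosome from a trisomic mother, while the Ts66Yah colony descends from a few founder females and was expanded by in vitro fertilization. Whether meninges stayed on the dissected hemispheres is not stated in the sources used here.

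Endothelial cells line every vessel, and in the brain they seal it with tight junctions and carry nutrients through transporters, which together form the blood-brain barrier. Pericytes and smooth muscle cells wrap the endothelium, are held there by PDGF signalling through Pdgfrb, and stabilise or constrict the vessel. Meningeal fibroblasts form the layers over the brain, secrete collagens and small proteoglycans, and supply retinoic acid to the developing cortex. In whole forebrain RNA these cells are a minority, and fewer cells of a type cannot be told apart from less RNA per cell.

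The values are log2 signals, and signals of different probe sets or colonies are not on 1 scale. The mean of an array lay between 5.26 and 5.33 in the Ts65Dn colony and, but for 1 array, between 6.35 and 6.41 in the Ts66Yah colony, so every trisomic group was compared with the euploid group of its own colony. EupTs66Yah replicate 16 stood apart, with a standard deviation of 1.13 of its log2 signals, where the remaining arrays of that colony had 2.23 to 2.40. It is called the low-spread array, and Ts66Yah results stand below both with this array and without it. A further 5 EupTs66Yah arrays (2.23 to 2.27) were narrower than every Ts66Yah array (at least 2.30), and with the low-spread array they make 6 narrower arrays. On 4 arrays the Mmu16 genes had the level of the opposite genotype, and on 17 the Y-linked genes went against the sex label; all were kept under their labels. As a rough description, since probe sets differ in scale, all 6 cortical neuron genes of a marker list lay at or above the median signal in each group, which does not test the tissue label. So did 35 of the 39 vascular and meningeal genes in Ts65Dn, EupTs65Dn and Ts66Yah and 34 in EupTs66Yah; Notch4, Tagln and Foxd1 lay below it in all 4 groups.

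The triplicated Mmu16 part holds Erg and Ets2, transcription factors of the ETS family, which bind a GGAA core in many endothelial genes. The promoters of Eng and Igfbp7, the members called in the largest number of settings below, are shown for a longer form of that core: the 250 bases before the RefSeq start on build GRCm38.p6, 5′ to 3′ on the strand of the gene, with the letters AGGAAG or their reverse complement CTTCCT in capitals. Eng lies on the plus strand of chromosome 2 (chr2:32646345-32646594) and Igfbp7 on the minus strand of chromosome 5 (chr5:77408046-77408295).
Eng: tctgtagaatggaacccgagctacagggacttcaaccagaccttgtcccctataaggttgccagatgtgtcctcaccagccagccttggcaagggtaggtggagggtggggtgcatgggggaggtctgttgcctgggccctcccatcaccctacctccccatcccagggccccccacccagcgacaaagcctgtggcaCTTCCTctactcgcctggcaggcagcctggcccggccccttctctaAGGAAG
Igfbp7: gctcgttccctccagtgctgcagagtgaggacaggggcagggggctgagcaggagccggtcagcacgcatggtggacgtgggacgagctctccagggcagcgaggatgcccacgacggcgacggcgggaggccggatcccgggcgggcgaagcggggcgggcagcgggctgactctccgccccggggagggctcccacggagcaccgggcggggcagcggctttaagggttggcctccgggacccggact
The Eng promoter held the motif 2 times, beginning 52 and 6 bases before the start, and the Igfbp7 stretch did not hold these 6 letters. The shorter core GGAA, on either strand, was present 3 times in the Eng stretch, 1 of them outside the capitals, and 1 time in the Igfbp7 stretch, and 96.0% of all windows of 300 bases held it. Searched on both strands in windows of 250 bases before to 50 after the start, AGGAAG was present in 8 of 14 endothelial members with a RefSeq window (Abcb1a, Emcn, Eng, Flt1, Ly6c1, Notch4, Slco1c1 and Tie1), in 0 of 7 mural members and in 3 of 9 meningeal members (Foxc1, Foxd1 and Igf2). Of all genes in the table, 38.4% had it in at least 1 window (35.4% of 32851 windows). Windows were found for 30 of the 39 genes, and a match of letters is a description of the sequence and not of a bound site.

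The first comparison asked whether the vascular and meningeal genes are altered in Ts65Dn against euploid embryos of the same litters. None of the 39 passed the test (limma, p-values adjusted by Benjamini-Hochberg across the 22206 probe sets, adjusted p under 0.1), where 0.491% of all probe sets did. Of the 39, 20 had a higher and 19 a lower mean in Ts65Dn, and their median log2 difference was 0.005 against -0.002 over all probe sets. At an unadjusted limma p under 0.05 there were 2 higher members, Col3a1 and Dcn (3.28% of all probe sets were higher by this rule), and 1 lower member, Pdgfrb (2.50%). The unpaired test of the series text and its marginal criterion (unadjusted p under 0.01 and a ratio under 0.8 or over 1.2, met by 1.03% of all probe sets) also called 0 of them. The classes had median log2 differences of -0.006 (endothelial), -0.053 (mural) and 0.088 (meningeal). The mean was higher in 7 of 17, 3 of 9 and 9 of 12 members of these classes.

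Among the endothelial genes, Pecam1, an adhesion molecule of endothelial junctions, ranged from 5.96 to 6.91 in EupTs65Dn (median 6.60) and from 5.74 to 7.08 in Ts65Dn (median 6.68). The log2 difference was 0.10 (SE 0.084, limma adjusted p = 0.94), and the groups overlapped over nearly their whole range. Cdh5, the cadherin of endothelial junctions, had medians of 7.31 in EupTs65Dn (6.58 to 7.65) and 7.24 in Ts65Dn (6.56 to 7.75). Its difference was 0.04 (SE 0.10). Cldn5, the main claudin of the barrier, had medians of 8.22 (7.87 to 8.56) and 8.20 (7.84 to 8.56). Its difference of -0.02 (SE 0.065) had a 95% interval from -0.15 to 0.11. For both junction genes the 2 groups covered the same span of values. The angiogenic receptor genes Kdr and Flt1 were at -0.05 and -0.16, and the angiopoietin receptor Tek and its partner Tie1 were at 0.05 and 0.005. Flt1, a decoy receptor for VEGF, had an unadjusted p of 0.057. The glucose transporter gene Slc2a1 (-0.06), the lipid transporter gene Mfsd2a (-0.006), the drug efflux pump gene Abcb1a (-0.09) and the thyroid hormone transporter gene Slco1c1 (-0.04) all had intervals that include 0.

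Pdgfrb, the receptor that holds pericytes on the vessel, had medians of 6.84 in EupTs65Dn (6.25 to 7.11) and 6.65 in Ts65Dn (5.89 to 7.10). Of 23 trisomic embryos 4 lay above the euploid median, a count also found for Abcb1a. The log2 difference of Pdgfrb was -0.17 (SE 0.081, unadjusted limma p = 0.046, limma adjusted p = 0.86). Rgs5, a regulator of G protein signalling typical of pericytes, was at -0.11 (SE 0.083), with medians of 7.17 (6.55 to 7.58) and 7.13 (6.54 to 7.51). Acta2, smooth muscle actin, was at -0.06 (SE 0.099), with medians of 6.07 (5.21 to 6.43) and 5.98 (5.40 to 6.55). The smooth muscle gene Tagln was at -0.29 (SE 0.16, unadjusted p = 0.072). Trisomic and euploid values overlapped for each of these genes.

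The fibrillar collagen gene Col3a1 had medians of 6.20 in EupTs65Dn (5.24 to 6.70) and 6.43 in Ts65Dn (5.61 to 6.80), with 18 of 23 trisomic embryos above the euploid median. Its log2 difference was 0.21 (SE 0.097, limma adjusted p = 0.85). Dcn, which encodes the matrix proteoglycan decorin, was at 0.17 (SE 0.083, limma adjusted p = 0.85), with medians of 8.68 (8.07 to 9.07) and 8.87 (7.90 to 9.32). The other collagen genes Col1a1 (0.06, SE 0.069) and Col1a2 (0.14, SE 0.092) lay on the same side of 0 and had larger p-values. Col1a1 ranged from 5.94 to 6.84 in EupTs65Dn (median 6.57) and from 6.13 to 6.79 in Ts65Dn (median 6.56). Igf2, a fetal growth factor gene strongly used by meninges, was at 0.09 (SE 0.062), with medians of 9.94 (9.40 to 10.16) and 9.99 (9.64 to 10.28). The forkhead factor gene Foxc1, needed for meninges to form, was at -0.18 (SE 0.11), on the other side of 0 from the collagens.

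**Figure D1:**
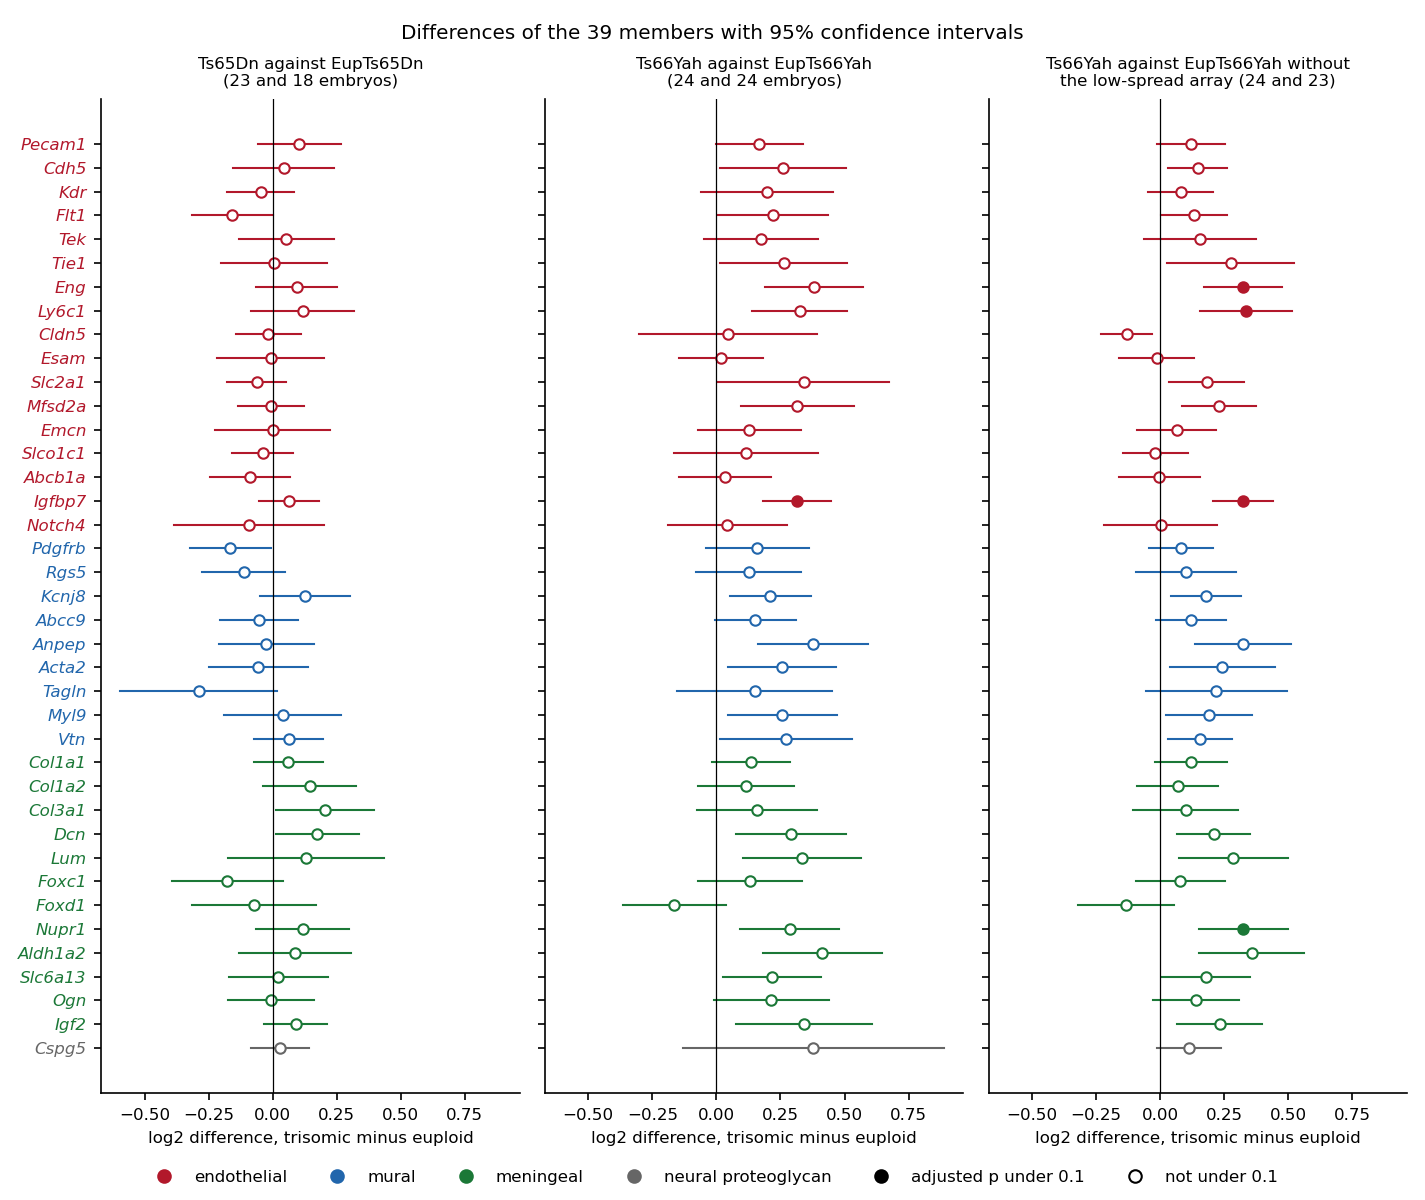
Log2 difference (trisomic minus euploid, horizontal axis) of each of the 39 genes with its 95% confidence interval, ordered and coloured by cell class, in 3 comparisons; filled points have a limma adjusted p under 0.1. In Ts65Dn the points lie on both sides of 0, in Ts66Yah 38 of 39 lie above 0, and without the low-spread array 34 do, with Cldn5 moving from 0.05 to -0.13.

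The second comparison set Ts66Yah forebrain against EupTs66Yah. With every array of the colony, Igfbp7 alone of the 39 genes rose (0.171% of all probe sets were called, 0.162% higher). The mean was higher in Ts66Yah for 38 of 39, with a median log2 difference of 0.21 against 0.04 over all probe sets, of which 13021 of 22206 were higher. Most members lie above the median signal, and over all probe sets at or above it the median was 0.12 (0.22 for the 34 members among them). The 6 cortical neuron genes had a median of 0.17. At an unadjusted limma p under 0.05 there were 18 higher members and 0 lower (5.51% of all probe sets were higher and 4.71% lower by this rule). Without the low-spread array 4 members rose and 0 fell: Igfbp7, Eng and Ly6c1 of the endothelial class and Nupr1 of the meningeal class (0.932% of all probe sets were called, 0.757% higher). By the marginal criterion 8 members were higher with all arrays (2.01% of all probe sets met it, 1.32% higher) and 6 without the low-spread array (1.80%, 1.29% higher); to the 4 genes above both sets add Anpep and Aldh1a2. Without the low-spread array 34 of the 39 had the higher mean in Ts66Yah, with a median of 0.15 against 0.004 over all probe sets (0.14 for the members and 0.03 for all probe sets at or above the median signal), and 18 higher and 1 lower member had an unadjusted p under 0.05 (7.16% and 4.94% of all probe sets). The genes were chosen with results of these data known, and these counts describe them without a test of the list.

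Igfbp7, a secreted protein of the vessel wall that binds insulin-like growth factors, ranged from 8.57 to 9.29 in EupTs66Yah without the low-spread array (median 8.96) and from 8.95 to 9.72 in Ts66Yah (median 9.27). The low-spread array was at 9.17. Of 24 trisomic embryos 23 lay above the euploid median and 9 above every euploid embryo, so the groups overlapped in their middle range. The log2 difference was 0.32 (SE 0.060, 1.25-fold, limma adjusted p = 0.0010) without that array and 0.31 (SE 0.067, limma adjusted p = 0.020) with it. With all arrays the call was lost when litter entered the fit (0.27, adjusted p = 0.12), and it held in 15 of 20 alternatives. Without the low-spread array it held in all 21 alternatives.

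Eng encodes endoglin, a co-receptor for TGF-beta family ligands on endothelium. It ranged from 6.80 to 8.31 in EupTs66Yah without the low-spread array (median 7.77) and from 7.66 to 8.39 in Ts66Yah (median 8.03), with 21 of 24 trisomic embryos above the euploid median and 3 above every euploid embryo. The trisomic values sat in the upper part of the euploid range and were less spread (SD 0.20, n = 24, against 0.32, n = 23). The log2 difference was 0.32 (SE 0.077, 1.25-fold, limma adjusted p = 0.032). With the low-spread array, at 6.36 the lowest of all, it was 0.38 (SE 0.098, adjusted p = 0.14).

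Ly6c1, a membrane protein gene of brain endothelium, ranged from 5.54 to 7.20 in EupTs66Yah (median 6.59) and from 6.49 to 7.41 in Ts66Yah (median 6.87). The lowest trisomic embryo lay near the euploid median, and 1 of 24 lay above every euploid embryo. The difference was 0.33 (SE 0.091, limma adjusted p = 0.085) without the low-spread array and 0.33 (SE 0.094, adjusted p = 0.23) with it. Ly6c1 has a near-identical neighbour, Ly6c2, and how far the probe set separates them is not stated in the sources used here.

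**Figure D2:**
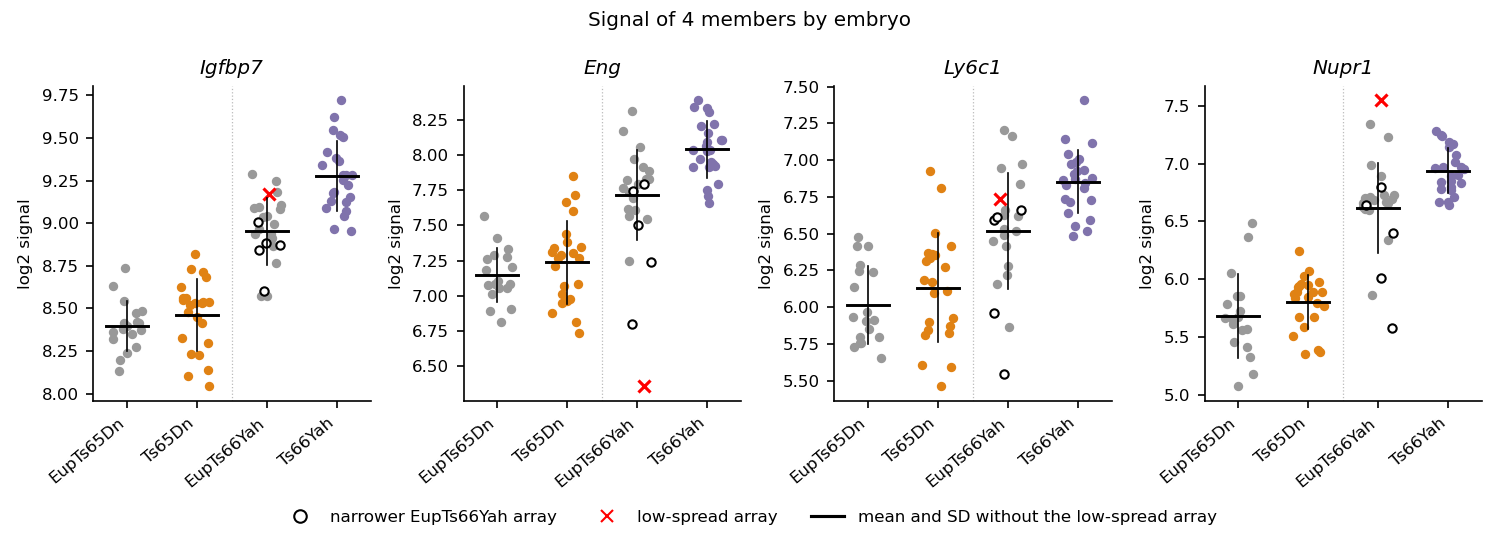
Log2 signal (vertical axis) of Igfbp7, Eng, Ly6c1 and Nupr1 in every embryo of the 4 groups, with the mean and SD without the low-spread array (red cross); open points are the other 5 narrower EupTs66Yah arrays. Trisomic and euploid points overlap for every gene, and the low-spread array is at 6.36 for Eng, below all others, and at 7.55 for Nupr1, above all others.

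Of the remaining endothelial genes, those of the vessel junction did not move as 1 group. Without the low-spread array Cdh5 was at 0.15 (SE 0.059, limma adjusted p = 0.30), with medians of 8.58 in EupTs66Yah (8.04 to 8.90) and 8.70 in Ts66Yah (8.30 to 9.02). Pecam1 was at 0.12 (SE 0.068, adjusted p = 0.48), with medians of 7.53 (6.98 to 7.69) and 7.64 (6.87 to 8.04). Esam, another junction adhesion gene, was at -0.01. Cldn5 was at -0.13 (SE 0.051, unadjusted p = 0.014, limma adjusted p = 0.28), with medians of 8.86 (8.55 to 9.18) and 8.72 (8.33 to 9.04) and only 5 of 24 trisomic embryos above the euploid median. With the low-spread array, whose Cldn5 signal of 4.62 was far below the other 23 euploid arrays, the sign turned to 0.05 (SE 0.18). With the standard deviation of the array as a covariate over all arrays Cldn5 fell (-0.22, SE 0.062, adjusted p = 0.093), 1 of 5 members called where 1.26% of all probe sets were. The same covariate without the low-spread array gave -0.14 (SE 0.054, adjusted p = 0.34).

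The VEGF receptor genes Kdr and Flt1 were at 0.08 and 0.13, and Tek and Tie1 at 0.16 and 0.27, all without the low-spread array and with none called. Tie1 lay below the median signal in both groups of this colony. Of the barrier transporters, Mfsd2a (0.23, SE 0.074, limma adjusted p = 0.17) and Slc2a1 (0.18, SE 0.075, adjusted p = 0.31) had intervals above 0. Abcb1a was at -0.003 and Slco1c1 at -0.02. None of them was called, their intervals overlapped, and a difference between these genes was not tested. Emcn, a sialomucin of capillaries and veins, was at 0.07, and the arterial Notch receptor gene Notch4, below the median signal, at 0.002. With the low-spread array all 17 endothelial members had the higher mean in Ts66Yah, and without it 13 did.

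All 9 mural genes had a higher mean in Ts66Yah with and without the low-spread array, and none passed the test. At an unadjusted limma p under 0.05 there were 5 in each case, all higher. By this rule 5.51% of all probe sets were higher with all arrays and 7.16% without the low-spread array. Anpep, the aminopeptidase CD13 of pericytes, had medians of 7.12 in EupTs66Yah (6.20 to 7.82) and 7.44 in Ts66Yah (6.85 to 7.82), with 20 of 24 trisomic embryos above the euploid median. Its log2 difference was 0.32 (SE 0.095, limma adjusted p = 0.12). Acta2 was at 0.24 (SE 0.11, adjusted p = 0.34), with medians of 6.82 (5.78 to 7.64) and 7.12 (6.27 to 7.58), and the light chain gene Myl9 was at 0.19. Pdgfrb was at 0.08 (SE 0.064, 95% interval -0.04 to 0.20), with medians of 7.46 (6.98 to 7.78) and 7.60 (7.04 to 7.84). Rgs5 was at 0.10 (SE 0.10), with medians of 7.78 (6.59 to 8.27) and 7.81 (6.85 to 8.26). Kcnj8 and Abcc9, the channel and its sulfonylurea receptor of pericytes, were at 0.18 and 0.12, Vtn (vitronectin) at 0.16 and Tagln at 0.22. The groups overlapped for each of the 9.

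Of the meningeal genes, Nupr1, a stress-induced nuclear protein gene, rose without the low-spread array. It ranged from 5.58 to 7.35 in EupTs66Yah (median 6.67) and from 6.64 to 7.28 in Ts66Yah (median 6.92), and 21 of 24 trisomic embryos lay above the euploid median. All trisomic embryos lay within the euploid range, in its upper part. The difference was 0.32 (SE 0.089, limma adjusted p = 0.085). With the low-spread array, at 7.55 the highest of all, it was 0.29 (SE 0.099, adjusted p = 0.34).

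Aldh1a2, the retinoic acid synthase gene of meninges, had the largest log2 difference of the class, 0.36 (SE 0.11, limma adjusted p = 0.12), with medians of 6.52 in EupTs66Yah (5.40 to 7.36) and 6.82 in Ts66Yah (6.28 to 7.44), and did not pass the test. Dcn was at 0.21 (SE 0.073, adjusted p = 0.21), with medians of 9.66 (9.01 to 10.12) and 9.79 (9.44 to 10.40). Igf2 was at 0.23 (SE 0.084, adjusted p = 0.23), with medians of 10.45 (9.66 to 11.08) and 10.67 (10.13 to 11.17). Lumican (Lum) was at 0.29 and osteoglycin (Ogn), both small proteoglycans of the matrix, at 0.14, and the GABA transporter gene Slc6a13 at 0.18. The 3 collagen genes were at 0.12 or below. Col1a1 was at 0.12 (SE 0.072), with medians of 7.38 (6.95 to 7.91) and 7.49 (6.97 to 7.99). Col3a1 was at 0.10 (SE 0.10), with medians of 7.48 (6.80 to 8.12) and 7.61 (6.85 to 8.46), and Col1a2 was at 0.07. Foxc1 was at 0.08, and the forkhead gene Foxd1, below the median signal in every group, had the lowest log2 difference of the class (-0.13, SE 0.096). Cspg5 was at 0.11 (SE 0.064). With the low-spread array, where its signal was 3.33 against at least 9.42 in the other euploid arrays, it was at 0.38 (SE 0.26).

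**Figure D3:**
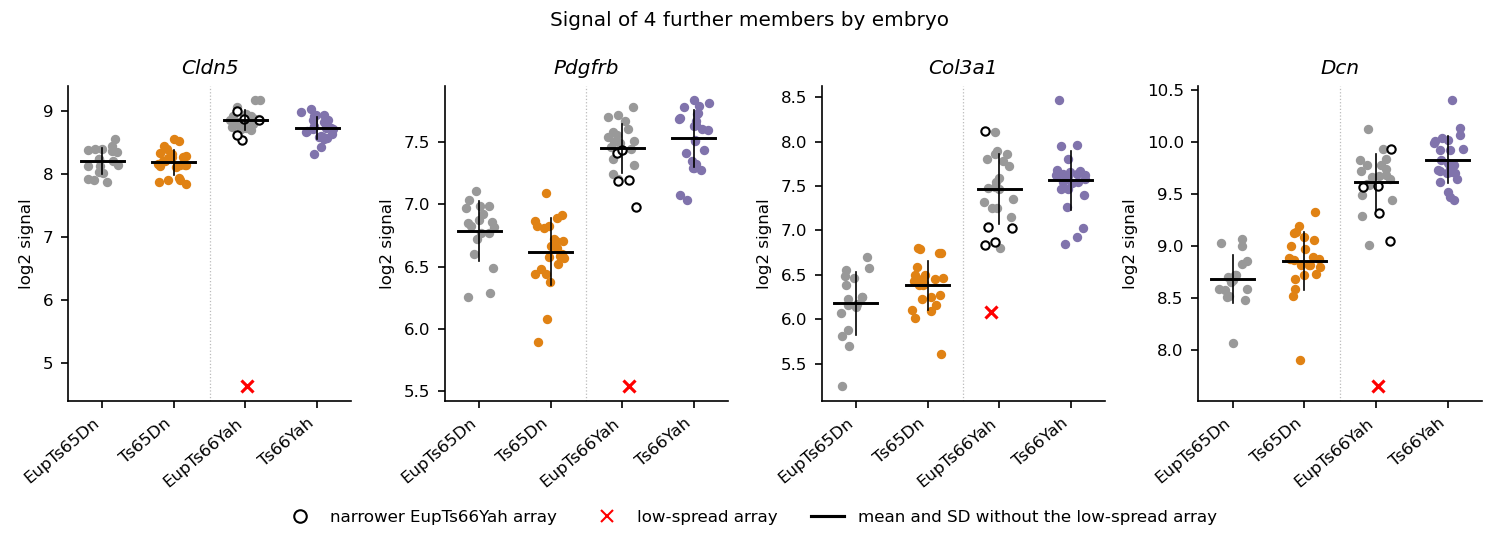
Log2 signal of Cldn5, Pdgfrb, Col3a1 and Dcn in every embryo of the 4 groups, drawn as in the plot of Igfbp7 and Eng. The low-spread array lies far below the other EupTs66Yah embryos for all 4 genes, at 4.62 for Cldn5, 5.54 for Pdgfrb, 6.08 for Col3a1 and 7.65 for Dcn.

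The 5 further narrower EupTs66Yah arrays had lower means of Igfbp7, Eng, Ly6c1 and Nupr1, but the low-spread array did not extend this pattern. It was low for Eng (6.36, against a mean of 7.71 in the other EupTs66Yah arrays). It lay above that mean for Igfbp7 (9.17 against 8.95), Ly6c1 (6.74 against 6.52) and Nupr1 (7.55 against 6.62). In the 5 further narrower EupTs66Yah arrays Eng had a mean of 7.42 ± 0.41 (SD, n = 5), against 7.80 ± 0.25 (n = 18) in the other EupTs66Yah arrays and 8.04 ± 0.20 (n = 24) in Ts66Yah. Nupr1 had means of 6.29 ± 0.49, 6.71 ± 0.32 and 6.94 ± 0.20 in the same sets, Ly6c1 6.27 ± 0.50, 6.59 ± 0.35 and 6.85 ± 0.22, and Igfbp7 8.84 ± 0.15, 8.98 ± 0.20 and 9.28 ± 0.20. Each of the 4 genes was thus lowest on average in the narrower arrays and highest in Ts66Yah. Without the 6 narrower arrays Igfbp7 stayed called, and Eng (0.24), Ly6c1 (0.27) and Nupr1 (0.23) did not. That fit called 0.342% of all probe sets. Igfbp7 was also the 1 member called when array spread entered the fit, the low-spread array left out (0.410% of all probe sets). With all arrays, including the low-spread array, the same covariate gave 5 calls (1.26% of all probe sets): Igfbp7 (0.33), Eng (0.29, limma adjusted p = 0.064), Ly6c1 (0.33, adjusted p = 0.093) and Nupr1 (0.34, adjusted p = 0.083) rose and Cldn5 fell. With all arrays the fit without the covariate called Igfbp7 alone, so the covariate added Eng, Ly6c1, Nupr1 and Cldn5. Without the low-spread array it ended the calls of Eng, Ly6c1 and Nupr1.

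Embryos of a litter share a dam, and the calls were compared litter by litter without the low-spread array. Igfbp7 had the higher trisomic mean in 6 of 6 litters, by 0.11 to 0.44 on the log2 scale, and Eng in 6 of 6, by 0.02 to 0.57. The smallest differences of Eng, 0.02 and 0.07, were in WT13 and WT11, with 2 and 1 euploid embryos. Igfbp7 was at 0.11 and 0.22 in these litters. Ly6c1 and Nupr1 were higher in 5 of 6. In both cases the litter of dam WT11, with 1 euploid embryo, ran the other way (-0.41 for Ly6c1 and -0.47 for Nupr1). With the litter as a block and without the low-spread array, Igfbp7 (0.29) and Eng (0.30, limma adjusted p = 0.069) kept their calls, and Ly6c1 (0.32, adjusted p = 0.16) and Nupr1 (0.33, adjusted p = 0.11) did not. Leaving out litter WT12, WT15 or WT18 left Igfbp7 as the 1 member called, while leaving out WT11 gave 5 called members, WT13 4 and WT19 3. The shares of all probe sets called in these fits are not given here. The 5 further narrower arrays were in WT15 (1), WT18 (2) and WT19 (2), so these litters and array spread are not separate checks.

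A class mean was formed for each embryo as the mean, over the members of the class, of the log2 deviation from the colony mean of each gene. The endothelial mean ranged from -0.37 to 0.18 in EupTs66Yah without the low-spread array (median -0.05) and from -0.11 to 0.31 in Ts66Yah (median 0.05). The mural mean ranged from -0.62 to 0.24 (median -0.10) and from -0.11 to 0.33 (median 0.09), and the meningeal mean from -0.55 to 0.37 (median -0.02) and from -0.23 to 0.56 (median 0.07). The lowest embryos of all 3 classes were euploid, and the groups overlapped over most of their range. The low-spread array was at -1.67, -1.03 and -1.11. The 5 further narrower arrays averaged -0.24, -0.32 and -0.32, against -0.02, -0.03 and -0.02 in the other 18 EupTs66Yah arrays. Each class mean was higher in trisomic than in euploid embryos in 4 of 6 litters of the Ts66Yah colony. The exceptions, WT11 and WT13, held 1 and 2 euploid embryos. In the Ts65Dn colony the trisomic mean was higher in 3 (endothelial), 1 (mural) and 5 (meningeal) of 6 litters. There the meningeal mean was also the most uneven, with litter TS18 at -0.20 ± 0.22 (SD, n = 7) and TS42 at 0.12 ± 0.10 (n = 7).

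**Figure D4:**
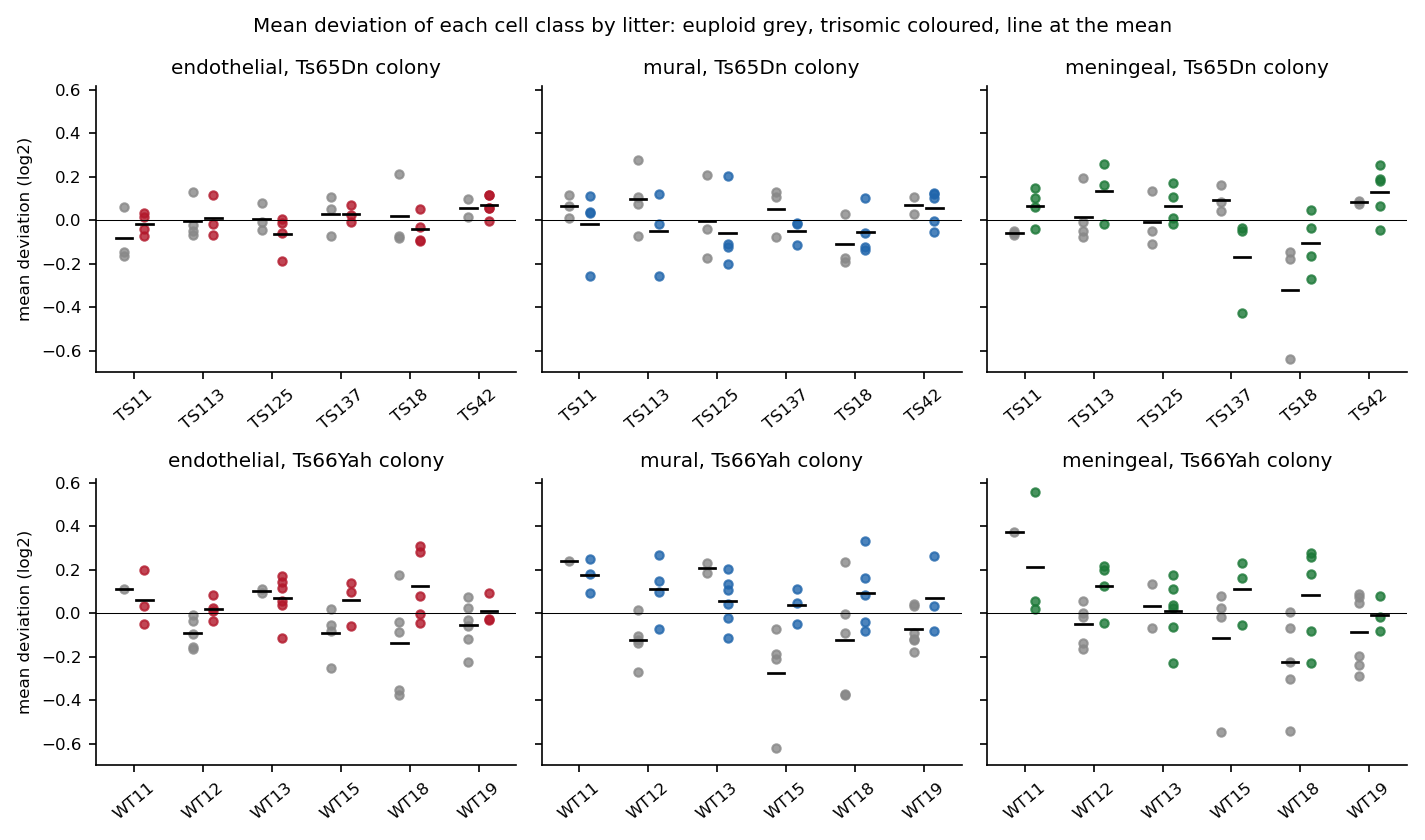
Mean log2 deviation (vertical axis) of the endothelial, mural and meningeal members in each embryo by litter (horizontal axis), euploid in grey and trisomic in colour, with a line at the mean of each set; the low-spread array is not drawn. In litters WT12, WT15, WT18 and WT19 the trisomic mean lies above the euploid mean in all 3 classes. In WT11 (1 euploid embryo) and WT13 (2 euploid embryos) it lies below.

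The next comparison asked whether the trisomy effect on these genes differs between the models. None of the 39 passed the test of the difference, Ts65Dn effect minus Ts66Yah effect, with all arrays (0.00901% of all probe sets called) or without the low-spread array (0.149%). In both fits 9 members had an unadjusted limma p under 0.05 with a lower signed effect in Ts65Dn than in Ts66Yah, and 0 with a higher one. By this rule 3.40% and 3.94% of all probe sets were lower in these fits, and 3.64% and 3.20% higher. The marginal criterion called Flt1 and Anpep, both lower, with all arrays (1.41% of all probe sets, 0.869% higher) and 0 members without the low-spread array (1.45%). Igfbp7 had the smallest p without the low-spread array, with a difference of -0.26 (SE 0.084, unadjusted p = 0.0026, limma adjusted p = 0.42, 95% interval -0.42 to -0.10). Eng was at -0.23 (SE 0.11), Pdgfrb at -0.25 (SE 0.10) and Anpep at -0.35 (SE 0.14). Tagln had the largest difference, -0.51 (SE 0.21). Ly6c1 (-0.22) and Nupr1 (-0.21) had intervals that include 0. The calls in Ts66Yah are therefore not shown to be particular to that model.

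Genes related to the 39 were counted in 12 further lists. Of these, 2 held calls: the choroid plexus list, with 1 gene given below, and the list of vascular genes that lie in the triplicated Mmu16 part, whose 6 members had higher means in both models. The junction adhesion gene Jam2 rose by a log2 difference of 0.43 (SE 0.053) in Ts65Dn and 0.43 (SE 0.062) in Ts66Yah without the low-spread array, and the calcineurin regulator gene Rcan1 by 0.53 (SE 0.068) and 0.45 (SE 0.067). These were the 2 called in Ts65Dn (limma adjusted p under 0.1, 0.491% of all probe sets). There Ets2 was at 0.33, Adamts1, a secreted metalloprotease gene, at 0.42, and Erg at 0.37. In Ts66Yah without the low-spread array Ets2 (0.53, SE 0.091), Erg (0.45, SE 0.098) and Adamts1 (0.40, SE 0.10) rose as well. This made 5 of 6, where 0.932% of all probe sets were called. With all arrays 4 of 6 rose, without Adamts1 (0.171% of all probe sets). The hematopoietic factor gene Runx1 was at 0.13 in Ts65Dn and 0.39 in Ts66Yah and was not called.

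Of 24 measured angiogenic ligand and receptor genes, 0 were called in either model by limma. At an unadjusted p under 0.05 there were 1 higher and 2 lower in Ts65Dn, and 3 higher and 1 lower in Ts66Yah without the low-spread array. Of all probe sets, 3.28% were higher and 2.50% lower by this rule in the first fit, and 7.16% and 4.94% in the second. The smallest p belonged to Vegfa in Ts65Dn, the growth factor that acts on Kdr (-0.19, SE 0.066, adjusted p = 0.53), and to Tgfb1 in Ts66Yah (0.30, SE 0.094, adjusted p = 0.15). The lists of 12 endothelial transcription factors, 18 barrier junction and transport genes, 12 vascular basement membrane genes, 11 other mural and 17 other meningeal genes also held 0 calls. Their medians in Ts66Yah without the low-spread array were 0.02, 0.04, 0.07, 0.03 and 0.16. In the last of these 16 of 17 had a higher mean in Ts66Yah, and Fbln1, a fibulin gene, had the smallest p (0.23, SE 0.069, adjusted p = 0.12). At an unadjusted p under 0.05 the 5 lists had 0, 2, 4, 2 and 2 higher members and 0 lower (7.16% and 4.94% of all probe sets).

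In Ts65Dn the same 5 lists held 0 calls. At an unadjusted p under 0.05 they had 1, 2, 0, 0 and 0 higher members (3.28% of all probe sets). The lower members were 1, 1, 0, 1 and 0 (2.50%). The smallest p of each list belonged to Tal1 (0.36), Slc38a5 (0.27), Col4a2 (0.08), Heyl (-0.41) and Postn (0.19). In Ts66Yah without the low-spread array Tal1 (0.16), Abcc4 (0.23), Fn1 (0.21) and Heyl (0.23) had the smallest p of the first 4 lists.

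Markers of other cells that a dissected forebrain could hold were checked beside the meningeal and vascular genes. Of 15 genes of skull, cartilage, muscle and skin, 1 lay at or above the median signal, and their mean deviation ranged from -0.19 to 0.27 in EupTs66Yah without the low-spread array and from -0.25 to 0.18 in Ts66Yah. For 3 erythroid genes (1 above the median signal) the ranges were -0.44 to 0.37 and -0.79 to 0.34. For 9 genes of microglia and border macrophages they were -0.57 to 0.22 and -0.28 to 0.27, for 8 choroid plexus genes -0.51 to 0.28 and -0.60 to 0.49, and for 6 cortical neuron genes -0.21 to 0.37 and -0.17 to 0.44. The groups overlapped for each list. The 1 call was Clic6 of the choroid plexus list, itself a triplicated Mmu16 gene (0.55, SE 0.087, in Ts65Dn and 0.65, SE 0.099, in Ts66Yah). At an unadjusted limma p under 0.05, the other lists had 1 higher and 1 lower for skull (Bglap, 0.20, and Ckm, -0.21), 0 for erythroid, 2 higher for microglia (Lyve1, 0.22, and Mrc1, 0.20) and 1 higher for neurons (Slc17a7, 0.18) in Ts66Yah without the low-spread array. By this rule 7.16% of all probe sets were higher and 4.94% lower. In Ts65Dn the counts were 0, 0, 1 lower (Cd163, -0.37) and 0 (3.28% of all probe sets were higher and 2.50% lower). There 13 of the 15 skull, cartilage, muscle and skin genes had a higher mean, with a median of 0.07, beside 9 of 12 meningeal members with a median of 0.088. Their mean deviation ranged from -0.25 to 0.13 in EupTs65Dn and from -0.17 to 0.24 in Ts65Dn. Bglap and Mrc1 are named after their values were seen. The part of these cells in the results was not tested.

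The members were last compared across embryos, on values less the group mean and without the low-spread array. For each gene the mean Pearson correlation with the other genes of its class was taken, as a description of arrays that also share litter, depth of signal and normalization. Meningeal genes had the highest median, 0.38 over 47 embryos of the Ts66Yah colony and 0.26 over 41 of the Ts65Dn colony. Endothelial genes had 0.17 and 0.04 and mural genes 0.26 and 0.07. Taken with the genes of other classes, endothelial genes had 0.20 and 0.07 (mural) and 0.18 and 0.03 (meningeal). Mural genes had 0.19 and 0.06 (endothelial) and 0.20 and 0.14 (meningeal). Endothelial genes were thus no closer to their own class than to mural genes. Among the meningeal genes Igf2 (0.46), Col1a2 (0.44) and Dcn (0.44) were highest in the Ts66Yah colony and Foxd1 lowest (0.06). In the Ts65Dn colony Slc6a13 (0.33) and Dcn (0.32) were highest and Foxd1 lowest (-0.04). Less the litter means the meningeal medians were 0.36 and 0.18, beside 0.20 and 0.16 for meningeal genes with mural genes. In the endothelial class Cldn5 had 0.04 and -0.07 in these colonies, and Notch4 -0.01 and 0.01.

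**Figure D5:**
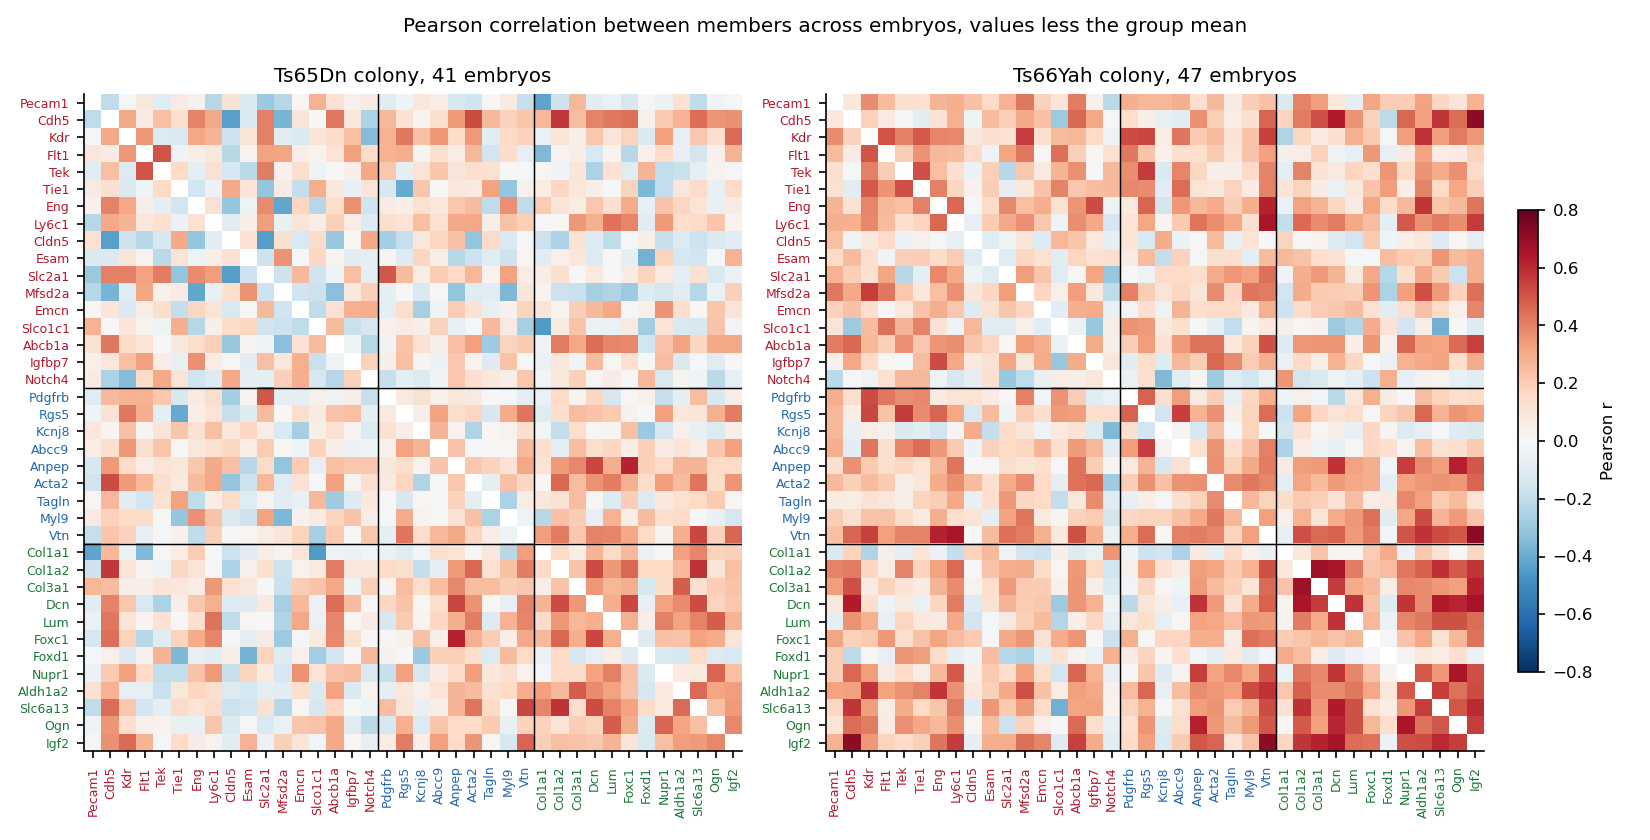
Pearson correlation (colour, from -0.8 in blue to 0.8 in red) between 38 genes across embryos of each colony, on log2 values less the group mean, ordered by class with lines between the endothelial, mural and meningeal blocks. The meningeal block at the lower right is the reddest in both colonies, with a median of 0.26 in the Ts65Dn colony and 0.38 in the Ts66Yah colony.

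In each colony 10 pairs were tested by permutation (100000 resamples, two-sided, Benjamini-Hochberg over the 20 relations). Dcn and Ogn, both matrix proteoglycan genes, were related in the Ts66Yah colony (r = 0.61, p = 2e-05, adjusted p = 0.0004, rho = 0.48). Without the 2 embryos farthest from the median of Dcn r was 0.49 (permutation adjusted p = 0.016) and rho 0.40 (adjusted p of rho = 0.11, not under 0.1). In the Ts65Dn colony r was 0.18 (adjusted p = 0.47). The pericyte pair Pdgfrb and Rgs5 had r = 0.47 (rho = 0.42, permutation p = 0.00087, adjusted p = 0.0087) and the smooth muscle pair Acta2 and Tagln r = 0.38 (rho = 0.43, adjusted p = 0.046) in the Ts66Yah colony. Without the 2 farthest embryos both were smaller and lost their call, with r = 0.29 and rho = 0.35 for the first (permutation p = 0.051 and 0.020) and r = 0.29 and rho = 0.37 for the second (0.052 and 0.011, adjusted p of r = 0.21 each). In the Ts65Dn colony the pairs were at 0.07 and -0.08. Col1a1 and Pecam1 had r = -0.42 (rho = -0.40, permutation p = 0.0063, adjusted p = 0.042) in the Ts65Dn colony. Without the 2 farthest embryos r was -0.35 and rho -0.34 (permutation p = 0.027 and 0.036, adjusted p of r = 0.21). In the Ts66Yah colony r was -0.12. The junction pair Pecam1 and Cdh5 was unrelated by this test in both colonies (r = -0.20 and 0.08). Col1a1 and Col3a1, which encode chains of different fibrillar collagens, had r = 0.04 and 0.23, and 0.60 (adjusted p = 0.00015) in the Ts66Yah colony without the 6 narrower arrays.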

How the data were processed

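One Clariom S HT array per embryo was analysed as the deposited log2 values of 22206 probe sets, which the authors made with RMA per the submitters' processing notes; its version is not stated in the sources used here. 19572 probe sets carried 1 gene symbol. Each trisomic group was compared with its own euploid group by limma 3.58.1 in R 4.3.3 (lmFit and eBayes), with p-values adjusted by Benjamini-Hochberg across the probe sets at the 10% threshold of the series text. The difference of effects was fitted over all 4 groups. Correlations were tested in Python 3.11.15 (numpy 2.4.6) on values less the group mean. The code was tested on simulated data.

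The members, lists, tests and alternatives were chosen with earlier results of these data known. All 39 members were named. Full statistics were given for members called in any comparison and for 10 fixed members. Of the other lists, counts, up to 3 called genes, or else the 1 gene with the smallest p were given, and all 6 triplicated genes.

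The labels name each embryo's dam, so the litter was a block in an alternative fit. Mean deviations of euploid and trisomic littermates had r from -0.18 to 0.35 in the Ts65Dn colony and from -0.04 to 0.24 in the Ts66Yah colony. This r was above the highest r with another litter in TS11, TS113, TS18 and WT19, and below it in every other litter. The number of arrays limits the precision.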

Additional observations from a re-analysis of the deposited data

How the results depend on the processing

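In Ts65Dn 0 members were called in each of 19 alternatives. With all arrays of the Ts66Yah colony, where 1 member was called, the count was 0 with the litter as a replicate block, after quantile normalization and after centring on the array median. It was 2 among probe sets at or above the median signal, with array weights, with a trended and robust prior and without arrays at the other genotype's Mmu16 level. It was 5 with array spread as a covariate, 6 without the arrays at odds with their sex label (chosen after seeing the data) and 8 by the marginal criterion. Leaving out 1 litter gave 0 to 1, with 0 without WT12 or WT19. Without the low-spread array, where 4 were called, the count was 2 with the litter as a replicate block, at a threshold of 0.05, after quantile normalization or centring and with array weights. It was 1 with array spread as a covariate and without the 6 narrower arrays, also with the litter block (added after seeing the data), 3 with sex as a covariate, and 1 to 5 with 1 litter left out. It was 6 by the marginal criterion, among probe sets at or above the median signal, with a trended and robust prior, without arrays at the other genotype's Mmu16 level and without those at odds with their sex label. The marginal criterion gave 2 for the difference of effects (Flt1 and Anpep, all arrays). Shares of all probe sets are given above only for the unaltered, marginal, array spread and narrower-array fits. The other alternatives have no share beside them, and their member counts cannot be read apart from calls over all probe sets. The cause was not tested.

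Relations changed sign as follows. Col1a1 and Col3a1 in the Ts65Dn colony went to -0.037 less the litter means and -0.027 without the 2 farthest embryos. Without those, Col1a1 and Pdgfrb went to 0.066 and Pecam1 and Pdgfrb to 0.12 there. In the Ts66Yah colony Col1a1 and Pecam1 went to 0.013 without the narrower arrays, and Col1a1 and Pdgfrb to 0.045 less the litter means. Losing their call were Col1a1 and Pecam1 in the Ts65Dn colony (-0.35) and, in the Ts66Yah colony, Pdgfrb and Rgs5 (0.29) and Acta2 and Tagln (0.29) without the 2 farthest embryos, the last pair also without the narrower arrays (0.29). Without the latter, Col1a1 and Col3a1 (0.60) and Igf2 and Col1a1 (0.37) became called. The t-test of the series was not run for the difference of effects. Signal over background was not analysed here. Notch4, Tagln and Foxd1 lay below the median signal in all 4 groups. Lum did so in both groups of the Ts65Dn colony and in EupTs66Yah, and Tie1 in both groups of the Ts66Yah colony. How near these values lie to background is not known, which limits what these genes can show.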
